A study of Mus musculus with 9 samples.

Results

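Slc11a1, Sirpa, Cd63, Vamp2, Tgfb1, Ston2, Ptx3 and Ctse are the 8 genes, other than MHC and immunoglobulin genes, in a heat map that the study drew for antigen presentation, endocytosis and vesicle transport in lymph nodes. They were taken from the deposited expression table by gene symbol, and each symbol stood on 1 row of the 37801 used. The study selected them on the difference between Tyr-NrasQ61K and wild-type (WT) nodes in these same libraries, where they were higher in Tyr-NrasQ61K, so that difference is given here only as a description. A group that is not in the heat map, Tyr-NrasQ61K mice labelled MHCII-KO, gives libraries that played no part in the choice, and the question asked of them was whether the same 8 genes were again above WT.

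RNA sequencing covered 3 libraries in each of 3 groups. The Tyr-NrasQ61K MHCII-KO group (below, MHCII-KO) carried the transgene for activated NRAS and is called Cre-positive and MHC-negative. The Tyr-NrasQ61K group carried the transgene with wild-type MHCII status and is called Cre-negative. Both are labelled as an FVB/NJ cross. The WT group was FVB/NJ with neither change. The tyrosinase promoter, which drives the transgene, is active in melanocytes and their precursors. The Cre driver, the MHCII gene deleted, the age of the mice and whether each library was 1 animal are not stated by the labels or the study, so the p-values below measure the spread between these libraries only. The labels describe the mice as albino.

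The labels name nevus melanocytes as the source, whereas the study describes whole lymph nodes. Of 12 melanocyte markers, all in the table, the summed FPKM (fragments per kilobase of transcript scaled to library size) was 10.4 to 17.7 in MHCII-KO, 15.4 to 22.5 in Tyr-NrasQ61K and 10.6 to 13.6 in WT libraries. The melanosome enzyme gene Tyrp1 and the transporter gene Slc45a2 were listed at 0 in all WT libraries. Their means were 0.395 and 0.162 FPKM in MHCII-KO and 0.47 and 0.32 FPKM in Tyr-NrasQ61K. On average over the libraries the highest markers were Kit, a growth factor receptor gene, and Mitf. Kit was lower in MHCII-KO (3.84, 1.45 and 4.5 FPKM) than in WT libraries (5.58, 6.12 and 7.87). Of the 6 melanocyte markers that reached an FPKM of 1 in 3 or more libraries, 3 had all MHCII-KO libraries above WT. Kit was the 1 with all of them below. Of all genes at that level, 7.97% lay wholly above WT and 23.4% wholly below. Summed FPKM of 8 B cell markers was 333.3 to 492.3, 302.3 to 639.4 and 499.8 to 636.5 in the same order of groups. H2-Ab1, the beta chain of the MHC class II molecule I-A, was read at 108.2 to 270.9 FPKM in MHCII-KO, 148.9 to 276.4 in Tyr-NrasQ61K and 100.7 to 183.2 in WT libraries, and these ranges overlap, so it gives no check of the knockout label in whole nodes. MHCII-KO replicate 2 and Tyr-NrasQ61K replicate 2 stood apart on the first principal component of all tested genes (78.6 and 102, against -74.1 to 21.8 in the other libraries), and were the shallowest of the 8 libraries with a recovered depth, at 0.869 and 0.754 of that of WT replicate 1. Depth was 1.33 to 1.68 for 5 of the other libraries and was not recovered for Tyr-NrasQ61K replicate 3, which stood apart on the second component (100, against -35 to 12.9).

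Material taken up from outside a cell is enclosed in vesicles of the plasma membrane and carried through early and late endosomes to lysosomes. Phagocytes such as macrophages and dendritic cells use the same route to digest particles and to load peptides onto MHC class II molecules. Apart from Tgfb1 and Ptx3, the genes act at different points of this route. Sirpa encodes an inhibitory receptor of myeloid cells that binds CD47 on a target and restrains its uptake. Ston2 encodes stonin 2, an adaptor of clathrin-mediated endocytosis. Slc11a1 encodes a divalent metal transporter of the phagosome, Cd63 a tetraspanin of late endosomes, Ctse the endosomal aspartic protease cathepsin E, and Vamp2 a SNARE protein of vesicle fusion. Tgfb1 and Ptx3 encode secreted products, the cytokine transforming growth factor beta 1 and the pattern recognition protein pentraxin 3.

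All 8 genes are protein coding in GENCODE M21, and their coordinates are given on mm10. Slc11a1 (ENSMUSG00000026177) lies on chromosome 1 at 74375195 to 74386062, and Ctse (ENSMUSG00000004552) on the same chromosome at 131638306 to 131675505. Sirpa (ENSMUSG00000037902) lies on chromosome 2 at 129592835 to 129632228, Ptx3 (ENSMUSG00000027832) on chromosome 3 at 66219910 to 66225805, and Tgfb1 (ENSMUSG00000002603) on chromosome 7 at 25687002 to 25705077. Cd63 (ENSMUSG00000025351) lies on chromosome 10 at 128900989 to 128912822, Vamp2 (ENSMUSG00000020894) on chromosome 11 at 69088490 to 69092384, and Ston2 (ENSMUSG00000020961) on the minus strand of chromosome 12 at 91633009 to 91788387.

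Promoters are shown for 4 of the genes, the pair whose levels followed each other most closely (Slc11a1 and Cd63), the secreted cytokine (Tgfb1) and the gene with the largest ratio to WT (Ptx3). RefSeq promoter sequences (GRCm38.p6, from 250 bases before to 50 bases after the RefSeq start) were found for 5 of the 8 genes. For Cd63 and Ston2 that start lies inside the GENCODE span given above, not at its end, so these windows belong to a start other than the outermost one. Capitals mark matches on either strand to CACGTG (the E-box of lysosomal genes), CATGTG (the M-box core of melanocyte genes), GAGGAAGT (bound by PU.1 in myeloid cells), TGACTCA (AP-1), GGGCGG (the GC box) or the NF-kB consensus.
Slc11a1, chr1:74374953-74375252, plus strand: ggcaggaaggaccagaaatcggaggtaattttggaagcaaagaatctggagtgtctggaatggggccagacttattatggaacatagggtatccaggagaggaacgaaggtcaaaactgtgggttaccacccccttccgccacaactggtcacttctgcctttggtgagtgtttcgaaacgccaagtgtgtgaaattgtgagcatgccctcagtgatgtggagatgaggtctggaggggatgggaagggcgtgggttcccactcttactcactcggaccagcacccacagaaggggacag
Cd63, chr10:128909095-128909394, plus strand: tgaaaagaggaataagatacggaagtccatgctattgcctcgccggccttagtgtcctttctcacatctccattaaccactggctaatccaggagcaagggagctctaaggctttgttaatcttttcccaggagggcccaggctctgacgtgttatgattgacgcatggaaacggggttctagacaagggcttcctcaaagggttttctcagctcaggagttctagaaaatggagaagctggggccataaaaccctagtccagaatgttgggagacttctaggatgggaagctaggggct
Tgfb1, chr7:25686752-25687051, plus strand: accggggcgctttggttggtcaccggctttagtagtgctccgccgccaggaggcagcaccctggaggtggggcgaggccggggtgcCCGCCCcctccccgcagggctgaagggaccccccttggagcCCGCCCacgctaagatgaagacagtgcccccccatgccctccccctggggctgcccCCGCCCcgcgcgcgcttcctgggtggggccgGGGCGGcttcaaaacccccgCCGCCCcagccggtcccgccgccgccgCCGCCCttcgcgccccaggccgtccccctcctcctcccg
Ptx3, chr3:66219637-66219936, plus strand: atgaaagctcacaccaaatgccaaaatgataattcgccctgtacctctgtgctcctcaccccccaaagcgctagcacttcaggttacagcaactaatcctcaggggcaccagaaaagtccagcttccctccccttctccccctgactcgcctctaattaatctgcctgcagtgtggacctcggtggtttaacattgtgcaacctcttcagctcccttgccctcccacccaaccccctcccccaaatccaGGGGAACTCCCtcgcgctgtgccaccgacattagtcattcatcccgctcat
None of the 6 motifs was found in the windows of Slc11a1, Cd63 or Ston2. Tgfb1 held 6 GC boxes in a window of 77% G and C, where the median promoter had 52.7%. The capitals in Ptx3 are an NF-kB consensus match at the start site, read on both strands with a shift of 1 base. That motif was added after the sequences had been seen. Of 32851 promoters of the same length, 35.7% held GGGCGG, 4.51% the NF-kB consensus, 7.15% CACGTG, 14.2% CATGTG, 3.2% GAGGAAGT and 5.2% TGACTCA. A match describes the letters and is not evidence of binding.

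All 8 genes had a higher mean FPKM in MHCII-KO than in WT nodes, by ratios of 1.65 (Ctse) to 5.15 (Ptx3). For 6 of the 8, Slc11a1, Sirpa, Cd63, Vamp2, Tgfb1 and Ptx3, each of the 3 MHCII-KO libraries lay above all 3 WT libraries. Over the 16587 genes tested, which reached an FPKM of 1 in 3 or more libraries, the share that did so was 7.97%. Ston2 and Ptx3 did not reach that level, so the counts out of 8 in this paragraph include 2 genes outside the 16587. In Tyr-NrasQ61K nodes 7 of the 8 lay wholly above WT, against 8.18% of all genes, a count that the choice of the genes fixes and from which nothing is read. Library by library, 8, 6 and 7 of the 8 genes were above the highest WT library in MHCII-KO replicates 1, 2 and 3, where 16.3%, 19.6% and 22.6% of all tested genes were. The WT libraries are the ones the study selected against, so the position of the MHCII-KO libraries is new but the low WT values are not. The oncogene groups also differ from WT in the labelled strain (an FVB/NJ cross against FVB/NJ) and in the run of identifier numbers in the labels. Neither can be told apart from genotype. The study describes its wild-type controls as albino littermates without the transgene, which the strain labels do not state.

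**Figure D1:**
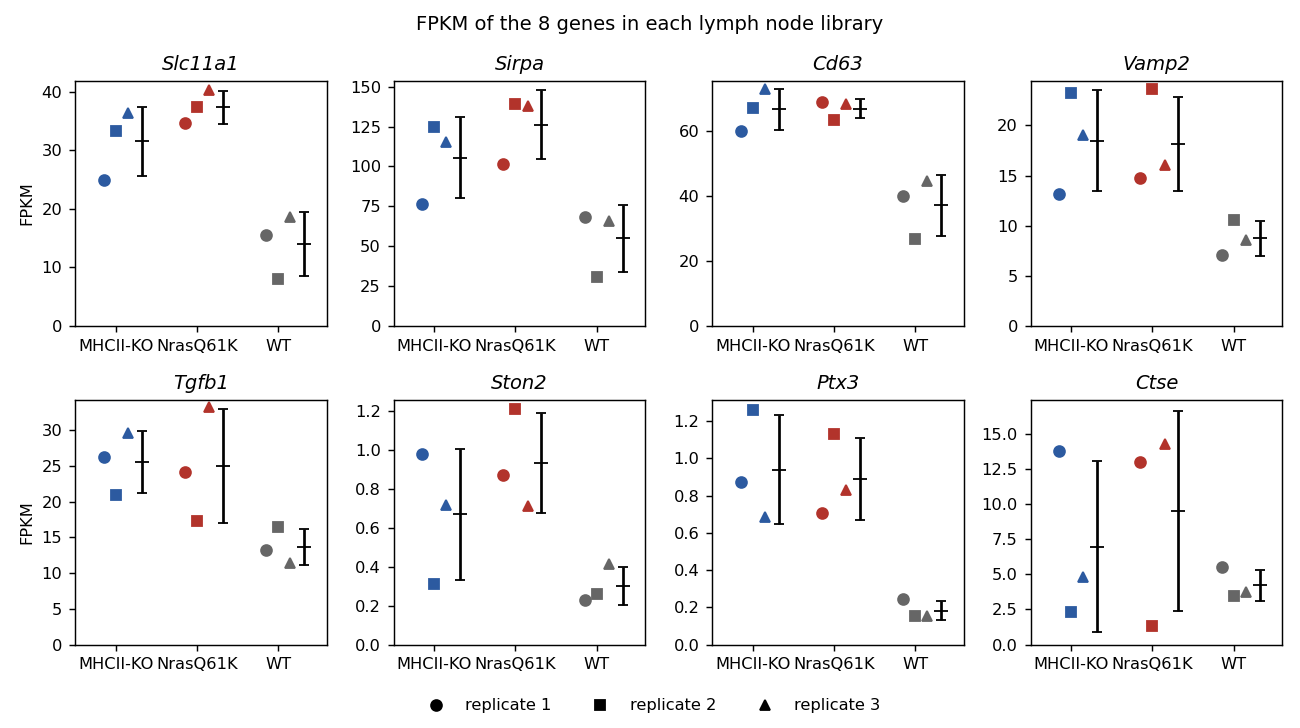
FPKM of the 8 genes in every library, with MHCII-KO (blue), Tyr-NrasQ61K (red) and WT (gray) from left to right, marker shape giving the replicate and the black bar the mean with its SD (n = 3). The MHCII-KO points lie beside the Tyr-NrasQ61K points for most genes, and Ston2 and Ctse each have MHCII-KO points among the WT points.

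The test across all genes called none of the 6 genes that passed the filter in MHCII-KO against WT. Called means that the Benjamini-Hochberg adjusted p, over all tested genes and from limma on log2(FPKM + 1), did not exceed 0.05. The log2(FPKM + 1) scale understates the change of low genes. By this rule 24 genes (0.145%) were called, 13 higher and 11 lower, and 39 (0.235%) were called in Tyr-NrasQ61K against WT. The 24 became 5 to 32 when 1 library was left out, with 5 without WT replicate 3, 9 without WT replicate 1 or MHCII-KO replicate 3, 10 without MHCII-KO replicate 1, 12 without WT replicate 2 and 13 without MHCII-KO replicate 2. At an unadjusted p under 0.05, 5 of the 6 genes were higher in MHCII-KO, all but Ctse, against 3.57% of all genes. All 6 had a log2 fold change above 0, against 32.5% of all genes. Their median was 0.919 in MHCII-KO against WT and 0.914 in Tyr-NrasQ61K against WT, where the medians of all genes were -0.217 and -0.12. Scaling by the median of ratios brought the medians of all genes to -0.005 and 0.011, and the 6 genes' median in MHCII-KO against WT was then 1.17, so relative to the typical gene their distance from WT was larger than the unscaled values give. Both contrasts use the same WT libraries.

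**Figure D2:**
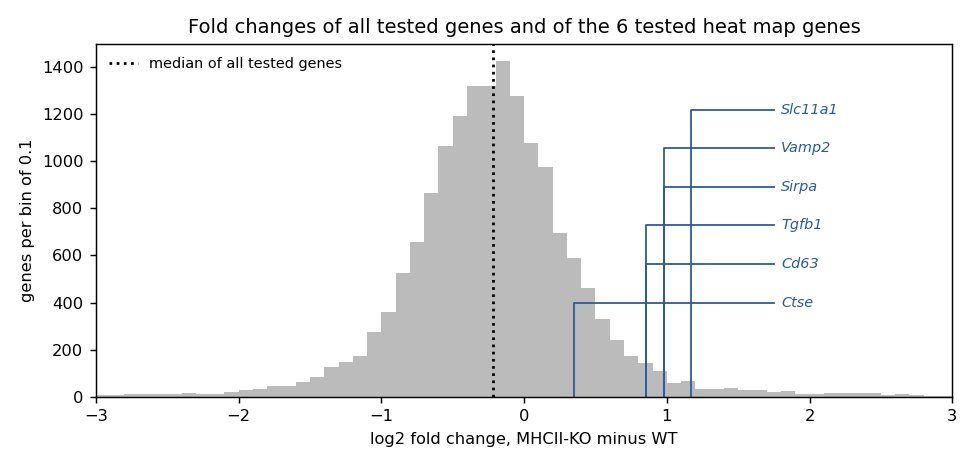
Log2 fold change of MHCII-KO against WT for the tested genes (gray, number of genes per bin of 0.1, drawn from -3 to 3), with the 6 tested heat map genes marked in blue and the dotted line at the median of all genes, -0.217. Slc11a1, Vamp2, Sirpa, Tgfb1 and Cd63 lie in the right tail, with 2.99% to 4.53% of genes above them, and Ctse lies nearer the center, with 14.3% above it.

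Among the surface proteins and adaptors of uptake, Sirpa was the most abundant of the 8 genes. Its FPKM was 76.6, 124.6 and 115.4 in MHCII-KO, 101.4, 139.2 and 138.1 in Tyr-NrasQ61K and 68.2, 30.9 and 65.6 in WT libraries. The oncogene groups overlapped each other and both lay above WT, but MHCII-KO replicate 1 was only 1.12 times the highest WT library. The mean was 105.5 ± 25.5 FPKM in MHCII-KO, 126.2 ± 21.5 in Tyr-NrasQ61K and 54.9 ± 20.8 in WT nodes (SD, n = 3 each). The log2 fold change of MHCII-KO against WT was 0.98 (95% interval 0.12 to 1.84, adjusted p = 0.329 from limma).

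Ston2, the adaptor, was near the limit of detection. It was read at 0.98, 0.313 and 0.717 FPKM in MHCII-KO, 0.873, 1.21 and 0.711 in Tyr-NrasQ61K and 0.229, 0.258 and 0.415 in WT libraries. MHCII-KO replicate 2, one of the 2 shallow libraries, fell among the WT libraries, and the other 2 MHCII-KO libraries were above all of them. Tyr-NrasQ61K replicate 2, the other shallow library, held the highest value of any library, 1.21 FPKM. Without MHCII-KO replicate 2, 7 of the 8 genes lay wholly above WT instead of 6. Ston2 did not pass the filter and was compared alone, by a difference in mean log2(FPKM + 1) between MHCII-KO and WT of 0.34 (two-sided exact permutation p = 0.2). With 3 against 3 libraries the smallest p this test can give is 0.1.

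In the phagosome and late endosome, Slc11a1 had the largest log2 fold change of the 6 tested genes. Its FPKM was 25.0, 33.2 and 36.3 in MHCII-KO, 34.6, 37.3 and 40.2 in Tyr-NrasQ61K and 15.5, 7.95 and 18.6 in WT libraries. Every MHCII-KO library was above every WT library, the lowest at 1.34 times the highest WT value. MHCII-KO replicates 1 and 2 were below all 3 Tyr-NrasQ61K libraries. The mean was 31.5 ± 5.82 FPKM in MHCII-KO, 37.3 ± 2.81 in Tyr-NrasQ61K and 14.0 ± 5.49 in WT nodes (SD, n = 3 each). Slc11a1 differed from WT by 1.17 on the log2 scale in MHCII-KO (95% interval 0.45 to 1.90, adjusted p = 0.28 from limma). It had a larger log2 fold change than all but 496 genes.

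Cd63 varied least between libraries of the oncogene groups. It was read at 60.0, 66.9 and 72.7 FPKM in MHCII-KO, 68.9, 63.3 and 68.2 in Tyr-NrasQ61K and 39.9, 26.7 and 44.5 in WT libraries. The 2 oncogene groups covered nearly the same range, and both lay above WT, where replicate 2 was lowest as it was for Slc11a1 and Sirpa. The mean was 66.6 ± 6.37 FPKM in MHCII-KO, 66.8 ± 3.02 in Tyr-NrasQ61K and 37.0 ± 9.27 in WT nodes (SD, n = 3 each). The log2 fold change of Cd63 in MHCII-KO against WT was 0.86 (95% interval 0.27 to 1.44, adjusted p = 0.321 from limma).

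Ctse, the endosomal protease, did not separate the groups. Its FPKM was 13.8, 2.30 and 4.79 in MHCII-KO, 13.0, 1.34 and 14.3 in Tyr-NrasQ61K and 5.50, 3.49 and 3.71 in WT libraries. High libraries occurred in both oncogene groups, whereas the 2 libraries that stood apart on the first component held the lowest values of all 9. The log2 fold change of MHCII-KO against WT was 0.35 (95% interval -1.42 to 2.11, adjusted p = 0.812 from limma). It was -0.24 without MHCII-KO replicate 1 and 0.85 without the 2 libraries that stood apart, so single libraries decide its direction.

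Vamp2, of vesicle fusion, followed the reverse pattern within groups. It was read at 13.2, 23.2 and 19.0 FPKM in MHCII-KO, 14.8, 23.6 and 16.1 in Tyr-NrasQ61K and 7.04, 10.6 and 8.60 in WT libraries. The lowest MHCII-KO library was 1.25 times the highest WT library, and replicate 2 was the highest library within each group. The log2 fold change in MHCII-KO against WT was 0.98 (95% interval 0.35 to 1.62, adjusted p = 0.302 from limma), and 0.81 without the 2 libraries that stood apart.

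Of the secreted products, Tgfb1 was read at 26.2, 21.0 and 29.6 FPKM in MHCII-KO, 24.2, 17.3 and 33.2 in Tyr-NrasQ61K and 13.3, 16.4 and 11.4 in WT libraries. No MHCII-KO library overlapped WT, and the lowest oncogene library, Tyr-NrasQ61K replicate 2, was close to the highest WT library. The log2 fold change of MHCII-KO against WT was 0.86 (95% interval 0.21 to 1.5, adjusted p = 0.329 from limma). TGF-beta 1 is made by many cell types of the node and is stored as an inactive complex until it is released.

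Ptx3 had the widest gap between the groups in ratio, at a low level. Its FPKM was 0.871, 1.26 and 0.687 in MHCII-KO, 0.709, 1.13 and 0.829 in Tyr-NrasQ61K and 0.242, 0.153 and 0.152 in WT libraries. The lowest MHCII-KO library was 2.83 times the highest WT library. The mean was 0.939 ± 0.293 FPKM in MHCII-KO, 0.891 ± 0.219 in Tyr-NrasQ61K and 0.182 ± 0.0518 in WT nodes (SD, n = 3 each). Like Ston2 it was below the filter, and the difference in mean log2(FPKM + 1) between MHCII-KO and WT was 0.70 (two-sided exact permutation p = 0.1, the smallest possible).

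Between the 2 oncogene groups no gene of the 8 separated the libraries. Called genes numbered 8 in all (0.0482%), and none was among the 6 tested genes. The 8 became 2 without Tyr-NrasQ61K replicate 3, 3 without Tyr-NrasQ61K replicate 1, 4 without Tyr-NrasQ61K replicate 2 and 5 without MHCII-KO replicate 1. The adjusted p from limma was 1 for each of the 6, and no unadjusted p was under 0.05. The mean was lower in MHCII-KO than in Tyr-NrasQ61K for 5 of the 8 genes, with ratios of 0.718 (Ston2), 0.731 (Ctse), 0.836 (Sirpa), 0.844 (Slc11a1) and 0.997 (Cd63), and it was 1.02 to 1.05 times as high for Vamp2, Tgfb1 and Ptx3. The intervals of the difference bound what these libraries could show. On the log2 scale they were -0.59 to 0.58 for Cd63, -0.62 to 0.66 for Vamp2, -0.57 to 0.71 for Tgfb1, -0.97 to 0.47 for Slc11a1, -1.13 to 0.59 for Sirpa and -2.04 to 1.49 for Ctse. Equal levels and a moderate loss or gain in MHCII-KO are both inside them.

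**Figure D3:**
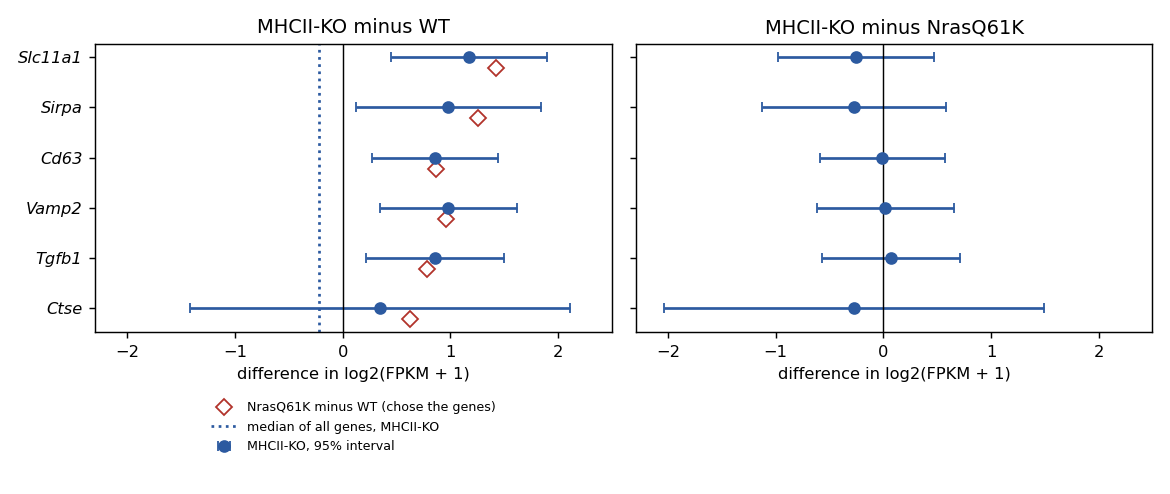
Differences in log2(FPKM + 1) for the 6 tested genes, MHCII-KO minus WT on the left and MHCII-KO minus Tyr-NrasQ61K on the right (blue points with 95% intervals, n = 3 libraries per group). On the left 5 of the 6 intervals lie above 0 and the open red diamonds, the contrast that chose the genes, lie close to the blue points; on the right all 6 intervals include 0.

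The 8 genes did not vary as one. Over the 9 libraries, Pearson's r of log2(FPKM + 1) was 0.983 between Slc11a1 and Cd63, 0.974 between Slc11a1 and Sirpa and 0.933 between Cd63 and Sirpa. Slc11a1 and Sirpa are mainly myeloid genes whereas Cd63 is made by many cell types, and all 3 were lowest in WT replicate 2. Ptx3 went with Vamp2 (0.897), whereas Ctse had an r of -0.239 with Vamp2 and of 0.565 at most, with Tgfb1. The points share their libraries and the difference between groups, so these values are descriptions with no test. Among 12007 genes above 0 in every library, the ones most like Slc11a1 were Cd63, the RNA editing enzyme gene Apobec1 (0.978) and Slc15a3, a peptide and histidine transporter of endolysosomes (0.976). Cd63 was most like Pdgfa (0.988), a growth factor gene, and then Slc11a1. Vamp2 was most like Zc3h12a (0.985), which encodes an RNase that degrades inflammatory mRNAs, Tgfb1 most like Dhtkd1 (0.967), Sirpa most like Speg (0.978), Ston2 most like Frrs1 (0.898), Ptx3 most like Ahnak2 (0.962) and Ctse most like Snx27 (0.963), a sorting nexin of endosomes.

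Other genes of the same roles were described from lists drawn up by function. Of 204 related genes tested in 10 lists, 58 (28.4%) had a log2 fold change above 0 in MHCII-KO against WT, with a median of -0.238. For 16 (7.84%) all 3 MHCII-KO libraries were above WT, close to the 7.97% of all genes, and for 37 (18.1%) all 3 were below, against 23.4% of all genes. Only Trem2 was called among them by limma, higher, and none was called lower. At an unadjusted p under 0.05, 8 (3.92%) were higher and 19 (9.31%) lower, where 3.57% and 11.5% of all genes were. The 8 genes were selected as higher in Tyr-NrasQ61K and the lists were not, so the contrast between them is not a test.

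Around Vamp2, none of 27 SNARE and vesicle fusion genes was called, and 3 had a log2 fold change above 0 (median -0.273). The endosomal SNARE gene Vamp8 was at 29.3, 18.1 and 24.3 FPKM in MHCII-KO and 55.4, 31.3 and 57.6 in WT libraries (log2 fold change -0.96, adjusted p = 0.329 from limma). Of the 20 tetraspanins around Cd63, 3 were above 0 (median -0.315). Tspan3 was at 19.7, 14.7 and 18.6 FPKM in MHCII-KO and 45.8, 26.7 and 44.0 in WT libraries, a log2 difference of -1.06 (adjusted p = 0.275 from limma). For Vamp8 and Tspan3 every MHCII-KO library lay below every WT library. Of 18 late endosome and lysosome membrane genes 7 were above 0 (median -0.189). Rab7, a GTPase of late endosomes, was at 26.5, 24.1 and 35.1 FPKM in MHCII-KO and 17.9, 15.9 and 21.5 in WT libraries (0.60, adjusted p = 0.329 from limma).

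Around Slc11a1, 9 of 18 divalent metal and iron transport genes were above 0, and their median, 0.034, was the only one of the 10 list medians above 0. Fth1, the heavy chain of ferritin, was at 801, 639 and 1040 FPKM in MHCII-KO, 1070, 437 and 1040 in Tyr-NrasQ61K and 253, 230 and 339 in WT libraries. Its log2 fold change in MHCII-KO against WT was 1.58 (adjusted p = 0.301 from limma), larger than that of any of the 6 tested heat map genes. Slc30a4, a zinc transporter gene, went the other way (-0.96, adjusted p = 0.31 from limma). Around Ctse, 8 of 17 cathepsin and lysosomal protease genes were above 0 (median -0.219). The cysteine protease gene Ctsk was at 7.12, 7.24 and 7.58 FPKM in MHCII-KO, 12.4, 5.05 and 10.6 in Tyr-NrasQ61K and 3.79, 1.27 and 3.24 in WT libraries, so that unlike Ctse it did not overlap WT (log2 fold change 1.21 in MHCII-KO, adjusted p = 0.321 from limma).

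Around Sirpa, 1 of 10 SIRP and CD47 genes was above 0 (median -0.321), namely the adaptor gene Tyrobp (0.44, adjusted p = 0.52 from limma). Of 37 phagocytosis and uptake receptors, 16 were above 0 (median -0.202). Trem2, a lipid-sensing receptor of macrophages that signals through Tyrobp, was at 17.9, 24.9 and 21.2 FPKM in MHCII-KO, 26.6, 16.9 and 22.3 in Tyr-NrasQ61K and 2.08, 0.382 and 1.15 in WT libraries. Its log2 fold change was 3.41 in MHCII-KO against WT (adjusted p = 0.00747 from limma). Without WT replicate 3 it was 3.43 with an adjusted p of 0.0591 from limma, so the call was lost with a fold change of the same size. Around Ston2, 3 of 29 clathrin coat and adaptor genes were above 0 (median -0.266), and Dab2, an endocytic adaptor, was at -1.21 on the log2 scale (adjusted p = 0.329 from limma). Around Tgfb1, 8 of 24 genes of the TGF-beta pathway were above 0 (median -0.2). Furin, the protease that processes the TGF-beta precursor, was at 8.74, 14 and 13 FPKM in MHCII-KO and 7.31, 6.01 and 7.32 in WT libraries (0.69, adjusted p = 0.329 from limma). Around Ptx3, 1 of 6 pentraxin partners was above 0 (median -0.337).

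**Figure D4:**
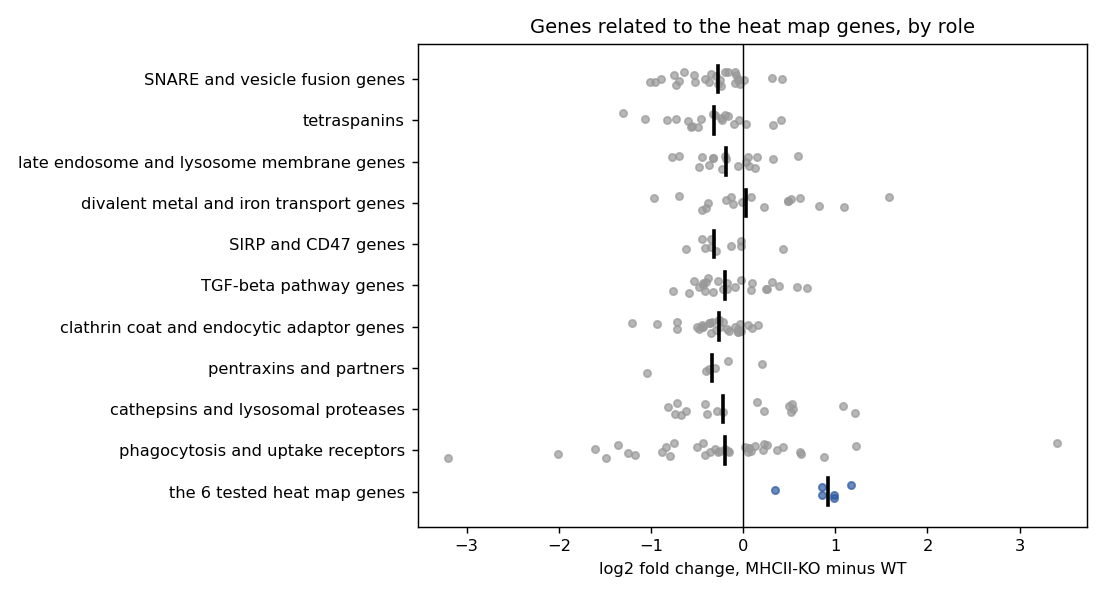
Log2 fold change of MHCII-KO against WT for genes related to the heat map genes, 1 gray point per gene and 1 row per role, with the black bar at the row's median and the 6 tested heat map genes in blue in the bottom row. The medians of 9 of the 10 lists lie below 0 and that of the blue points is 0.919.

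Whole nodes were measured, so more cells of a type and more RNA per cell cannot be told apart. Beside the myeloid genes Slc11a1 and Sirpa, the summed macrophage markers overlapped between the groups. Of 15 such markers 14 were in the table, and their summed FPKM was 869.1 to 1508 in MHCII-KO, 703.7 to 1624 in Tyr-NrasQ61K and 705.8 to 1575 in WT libraries, mostly from Lyz2. Of the 13 markers tested, 3 were lower and none higher in MHCII-KO than in WT at an unadjusted p under 0.05 from limma. The integrin gene Itgam was at 6.1, 3.87 and 6.42 FPKM in MHCII-KO and 22.7, 9.54 and 21.6 in WT libraries, and the mannose receptor gene Mrc1 at 9.01, 4.26 and 8.27 FPKM in MHCII-KO and 20.4, 10.4 and 32.6 in WT libraries. Neither overlapped. The sum was lowest in replicate 2 of each group, which in WT is also where Slc11a1, Sirpa and Cd63 were lowest. Siglec1 was listed at 0 in WT replicates 2 and 3 but at 37.3 FPKM in WT replicate 1. It was at 8.63 to 18.6 FPKM in MHCII-KO and 12.2 to 17.5 in Tyr-NrasQ61K libraries. Vsig4 was at or near 0 in all libraries. The 12 dendritic cell markers summed to 139.4 to 192 FPKM in MHCII-KO, 136.1 to 236.7 in Tyr-NrasQ61K and 224.9 to 315.8 in WT libraries. H2-DMb2 and Fscn1 were the highest of them, and H2-DMb2 alone was at 58.7 to 87.1 FPKM in MHCII-KO and 100 to 136 in WT libraries. For 7 of the 12 all 3 MHCII-KO libraries lay below WT, against 23.4% of all genes, and 1, Itgax, had a log2 fold change above 0 (0.26). Adipocyte markers, 7 of 7 found, were lower in both oncogene groups, at 59.9 to 167.8 and 39.0 to 182 FPKM, against 269.3 to 497.3 in WT libraries. The melanocyte enzyme gene Dct was at 0.847, 2.10 and 3.25 FPKM in MHCII-KO, 5.81, 4.16 and 2.77 in Tyr-NrasQ61K and 0.0508, 0 and 0.0319 in WT libraries. The part of these differences in tissue make-up in the levels of the 8 genes was not tested.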

How the data were processed

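Total RNA was sequenced on a single Illumina flow cell. The FPKM values deposited by the authors were made, per the submitters' processing notes, with TopHat, Cufflinks and Cuffdiff on mm10; versions, annotation and read filters are not given in the sources used, and FPKM hold no read counts, so depth is relative only, taken from the most frequent ratio of low values between libraries. Of 37819 entries, 18 with more than 1 value per library were dropped. The 16587 genes reaching an FPKM of 1 in 3 or more of the 9 libraries were fitted as log2(FPKM + 1) with limma 3.58.1 in R 4.3.3 (a mean per group, trended moderated variances) and adjusted by Benjamini-Hochberg. Genes below the filter had exact permutation tests. Ranges with ± are SDs. The fit was tested on simulated data. Gene positions came from GENCODE M21.

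The 8 genes, the related and marker lists and the alternatives (pseudocount, filter, scaling, library weights, replicate block, 2 groups only, identifier run, libraries left out) were chosen with earlier results of these data known. Related and marker genes named are those called (at most 4 per list), otherwise the 2 of smallest unadjusted p in MHCII-KO against WT or the 2 markers of highest mean, of which a selection is printed, and 1 related gene is not reported here; Tyrp1, Slc45a2, H2-Ab1, Siglec1 and Vsig4 were singled out after their values were seen. For each of the 8 genes the 3 most correlated genes were taken. Python 3.11.15, numpy 2.4.6, pandas 2.3.3 and matplotlib 3.10.9 were used.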

Additional observations from a re-analysis of the deposited data

How the results depend on the processing

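In MHCII-KO against WT, Slc11a1, Sirpa, Cd63, Vamp2 and Tgfb1 had a log2 fold change above 0 under all 18 alternatives, and 6 or 7 of the 8 genes lay wholly above WT. The count of called genes among the 6 tested moved under 2 alternatives. With library weights, which ranged from 0.197 to 5.22, it was 5 (Slc11a1, Sirpa, Cd63, Vamp2 and Tgfb1), but 7410 of the 16587 genes were then called. With replicate number as a block (replicate block) it was 1, Vamp2, adjusted p = 0.0419 from limma, with 777 genes called in all. The correlation of same-numbered deviations was -0.0384 to 0.332. Differently numbered libraries were not compared, so these values cannot decide whether the numbers pair the samples. The count was 0 when any 1 library was left out. Without WT replicate 3 none of the related genes was called. The cause of these shifts was not tested.

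Ctse in MHCII-KO against WT ranged from -0.24 to 0.845 when 1 library was left out. Between the oncogene groups, where none of the tested heat map genes was called, signs turned easily. Leaving out 1 library gave -0.0735 to 0.063 for Cd63, -0.155 to 0.228 for Vamp2, -0.157 to 0.294 for Tgfb1 and -1.16 to 0.223 for Ctse. Cd63 was 0.143 with quantile normalization, 0.0864 with median-of-ratios scaling, 0.0331 with library weights and 0.0132 with a term for the run of identifier numbers. Sirpa was 0.054 with library weights, and Tgfb1 was -0.0269 without both libraries that stood apart. Without the filter, Ptx3 in MHCII-KO against WT had an adjusted p of 0.245 and Ston2 of 0.467 from limma. FPKM near or below 1, as for these 2 genes, rest on few fragments, and their counting error is unknown.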
